A study of Mus musculus with 6 samples.

Results

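The nuclear genes for mitochondrial ribosomal proteins were examined in N9 microglia, an immortalized mouse microglial cell line. The members were all protein-coding genes of the deposited table whose symbol begins with Mrpl or Mrps followed by a number, and there were 78 of them among 54532 genes. The series compared untreated control cells with cells given lipopolysaccharide (LPS), a glycolipid of the bacterial surface that activates microglia, at 1 µg/ml for 6 h, with 3 libraries of each. All 6 libraries came from the same cell line in the same culture medium, so the data describe 1 line and not microglia of the brain. Nothing in the labels says that the replicates were separate cultures, so p-values measure the spread between these samples, which may be technical. Values of single libraries are listed by group in the order of replicates 1, 2 and 3.

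The mitochondrial ribosome translates the few proteins that the mitochondrial genome encodes, all of them parts of the respiratory chain and ATP synthase. Its proteins are made in the cytosol from nuclear genes and imported, and join the ribosomal RNAs transcribed inside the mitochondrion. Most large-subunit proteins carry the prefix Mrpl and most small-subunit proteins Mrps. Some have counterparts in bacterial ribosomes, while others are found only in mitochondria. LPS-activated macrophages and microglia are known to shift their energy metabolism away from mitochondrial respiration and towards glycolysis.

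The total count was between 16363767 and 17956772 per library. The microglia and macrophage markers Cd68, Csf1r, Spi1 and Ptprc were present at 3421 to 11691 counts in every library, whereas Aif1 and P2ry12 were at 3 to 9 counts and Sall1 at 0 or 1. Of the 11 tested markers of this list 6 passed edgeR's adjusted p of 0.05 (54.5%, beside 34.3% of all genes), 3 higher and 3 lower after LPS, for example Spi1 (higher) and Trem2 (lower). Astrocyte markers summed to 3179 to 3888 counts, nearly all from Aldoc, Gja1 and Aldh1l1, and these 3 passed among 4 tested (Gja1 higher, the others lower), while Gfap was at 0 to 10 counts and Aqp4 at 0 to 2. Neuron markers summed to 467 to 535 counts, and 2 of 3 tested passed (Tubb3 higher and Map2 lower), with Rbfox3 at 0 or 1. Summed hepatocyte markers were at 97, 492 and 661 counts in control, compared with 82, 89 and 121 counts after LPS. Only control replicates 2 and 3 lay above every LPS library, and of these 24 markers 1 was tested and 0 passed. Among the 77 tested members, 59 lay above their group mean in control replicate 1, 17 in control replicate 2 and 38 in control replicate 3, against 45, 28 and 40 in the LPS replicates. The part of these marker transcripts in the results was not tested. As in any bulk sample, fewer cells of a type and less RNA per cell cannot be told apart.

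Promoter sequence was matched for 69 of the 78 members from RefSeq (GRCm38.p6), over the 250 bases before each start. The promoter of the member with the largest rise (Mrpl52), that of Mrpl34, which fell and had the highest level per kilobase of the table's gene length, and that of a member that fell without any of the searched motifs (Mrpl41) are printed 5′ to 3′ on the gene's strand. They lie at chr14:54426659-54426908 (+ strand), chr8:71464676-71464925 (+ strand) and chr2:24975099-24975348 (- strand), and none overlaps an annotated exon. Capitals mark matches to the searched motifs.
Mrpl52: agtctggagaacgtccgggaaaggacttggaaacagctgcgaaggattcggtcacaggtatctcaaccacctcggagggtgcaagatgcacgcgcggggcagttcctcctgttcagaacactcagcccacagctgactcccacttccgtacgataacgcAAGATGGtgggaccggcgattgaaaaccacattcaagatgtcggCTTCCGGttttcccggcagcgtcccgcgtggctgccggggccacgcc
Mrpl34: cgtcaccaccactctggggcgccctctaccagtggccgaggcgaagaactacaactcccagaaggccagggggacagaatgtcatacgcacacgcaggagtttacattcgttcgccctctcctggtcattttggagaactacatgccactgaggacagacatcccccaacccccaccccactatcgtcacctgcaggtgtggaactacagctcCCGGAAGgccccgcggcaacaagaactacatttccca
Mrpl41: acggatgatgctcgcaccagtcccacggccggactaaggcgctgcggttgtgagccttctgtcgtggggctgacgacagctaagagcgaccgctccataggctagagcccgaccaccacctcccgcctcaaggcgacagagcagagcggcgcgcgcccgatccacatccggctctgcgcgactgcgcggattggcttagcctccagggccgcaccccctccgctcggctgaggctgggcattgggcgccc

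The motifs searched, on both strands, were those of NRF1 (GCGCA and GCGC with any base between) and of ETS factors (CCGGAAG), both known from promoters of nuclear genes for mitochondrial proteins, that of YY1 (AAGATGG), the E-box (CACGTG) and the inflammatory motifs of NF-kappa B (GGGA and TTTCC with any base between) and the interferon-stimulated response element, ISRE (GAAA and GAAA with any 2 bases between). In Mrpl52 the YY1 match begins 91 bases and the ETS match 47 bases before the start, and in Mrpl34 the ETS match begins 37 bases before it. The printed matches do not overlap each other. The ETS letters were found in 18 of 69 members (26.1%) and in 7.83% of all 27025 genes with a promoter in the table. Those genes were taken whether or not they were expressed here, unlike nearly all members, so the shares are not matched for expression. The NRF1 letters were found in 10 members (14.5%) against 4.23% of all genes. The YY1 letters were in 8.7% of members and 5.18% of all genes, the E-box in 7.25% and 6.86%, the ISRE in 4.35% and 3.46%, and the NF-kappa B letters in 0 members and 0.414% of all genes. The members have 75 windows, since some have several starts, and by GENCODE M21 46 of these hold bases of the gene's own exons, 6 of them wholly so. For 65 of the 75 windows the first 30 bases after the start were found in a GENCODE transcript of the gene. A match is a description of letters and not a binding site.

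As a group, the mitochondrial ribosomal protein genes changed little. Of the 78 members, 77 passed the filter on low counts, with means of 367 to 2117 counts per library. The median log2 fold change of LPS over control was 0.01 over these 77 members, with a middle range of -0.08 to 0.05, beside a median of 0.00 over all 12296 genes tested. The median size of the change, whatever its direction, was 0.06 on the log2 scale for members, 0.17 for all genes, and 0.14 for the 5347 genes within the members' range of counts. For 57 of the 77 members (74%) the 95% interval of the change lay wholly within 1.2-fold in either direction, compared with 29.8% of all genes and 44.1% of genes within that range of counts.

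The summed level of the members, in CPM (counts scaled to the size of the library) after TMM scaling, was 4707, 4400 and 4540 in control, compared with 4603, 4496 and 4577 after LPS. The 2 ranges overlapped, and the means were 4549 ± 154 and 4558 ± 55.9 CPM (SD, n = 3). Large-subunit members summed to 3237 ± 112 CPM in control and 3261 ± 24.1 CPM in LPS (SD, n = 3). Small-subunit members summed to 1288 ± 40.6 CPM in control and 1274 ± 30.9 CPM in LPS (SD, n = 3). The ratio of large to small was 2.51 ± 0.0158 in control and 2.56 ± 0.0443 in LPS (SD, n = 3). As a share of raw counts the members took 0.486%, 0.455% and 0.470% of the control libraries and 0.444%, 0.433% and 0.443% of the LPS libraries, so on that scale, without TMM factors, the LPS libraries were the lower ones and the groups did not overlap.

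**Figure D1:**
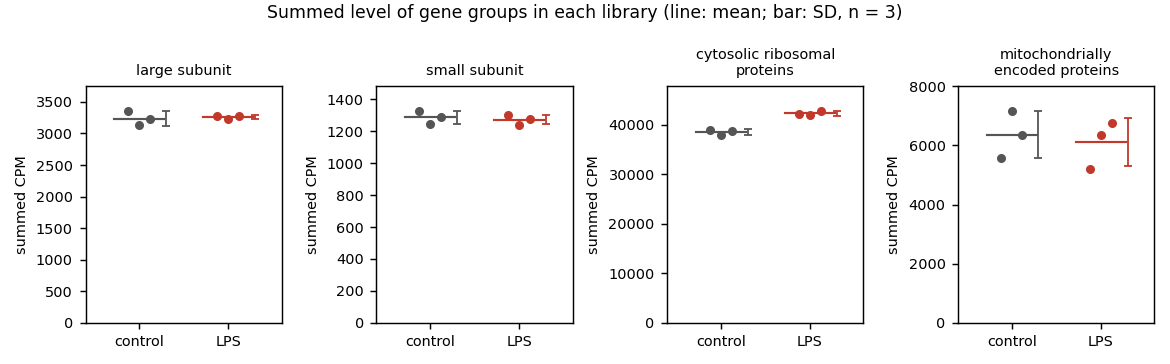
Summed level in CPM (vertical axis, from 0) of large-subunit members, small-subunit members, cytosolic ribosomal proteins and mitochondrially encoded proteins in each control (grey) and LPS (red) library. Points are libraries, lines are means and bars are SD (n = 3). The groups overlap for both subunits and for the mitochondrially encoded proteins, and do not overlap for the cytosolic ribosomal proteins.

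With edgeR's quasi-likelihood test and Benjamini-Hochberg adjustment over all genes tested, 13 of the 77 members (16.9%) passed an adjusted p of 0.05, while 34.3% of all genes passed it. Of these, 7 members rose, beside 18.7% of all genes, and 6 fell, beside 15.7% of all genes. Within the members' range of counts, 40.6% of genes passed. In 18 members the LPS libraries did not overlap the control libraries (10 higher and 8 lower), beside 45.3% of all genes. No member passed the study's thresholds for a differentially expressed gene (DEG), which add an absolute log2 fold change over 1.5, and 2.65% of all genes did. The count of members past those thresholds was 0 with DESeq2 too, and 0 members had an unadjusted edgeR p under 0.05 together with such a change, while 17 had an unadjusted p under 0.05 at any size.

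The number of members that rose or fell was sensitive to single libraries and to the tool. It was 4 higher and 2 lower with DESeq2, which called 14.2% of all genes higher and 11.6% lower. Without control replicate 2 it was 3 higher and 6 lower, where 16.2% of all genes were higher and 13.7% lower. Without LPS replicate 1 it was 4 and 3, beside 17% and 13.5% of all genes, and without LPS replicate 3 it was 6 and 3, beside 16% and 13.1%. Without control replicate 1, control replicate 3 or LPS replicate 2 only 1 member fell (1.3%), beside 15.4%, 12.4% and 12.6% of all genes. Total-count scaling gave 3 higher and 20 lower and upper-quartile scaling 3 higher and 11 lower, so the share of called members that were higher went from 53.8% to 13% and 21.4%. All genes moved the same way under these scalings. With total counts 27.2% of all genes were lower, beside 26% of members, and with the upper quartile 20.3%, beside 14.3% of members. The share of all called genes that were higher went from 54.3% to 31.3% and 42.5%. All 13 members kept their direction in all 14 alternatives, which refit the libraries they were called from and so are no independent support.

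**Figure D2:**
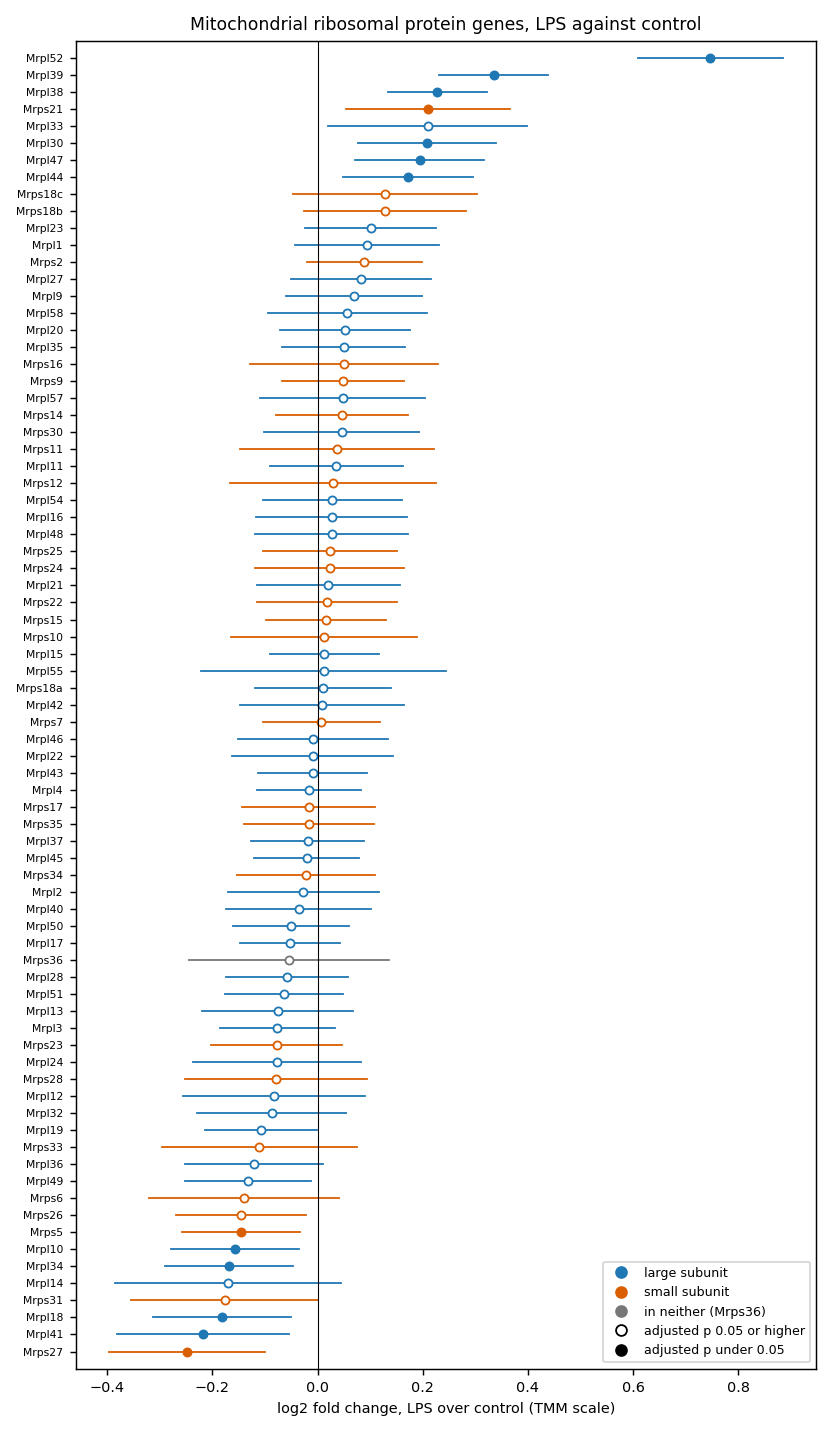
Log2 fold change of LPS over control (horizontal axis) with its 95% interval for each of the 77 tested members, ordered by size and coloured by subunit, filled where the adjusted p was under 0.05. Mrpl52 stands apart at 0.75, and the other members lie between -0.25 and 0.34.

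Mrpl52, a large-subunit protein without a bacterial counterpart, had the largest change of any member. Its gene lies at chr14:54426909-54429756 (mm10, + strand) and shares no exon bases with another gene. The control libraries held 582, 587 and 612 counts of it and the LPS libraries 830, 916 and 979. The lowest LPS library exceeded the highest control library. The level was 33.4 ± 0.536 CPM in control and 56.0 ± 3.51 CPM in LPS (SD, n = 3), a 1.68-fold rise with a log2 fold change of 0.75 ± 0.06 (SE) and an adjusted p of 3.1e-07 by edgeR. It passed in 14 of 14 alternatives, with log2 fold changes of 0.65 to 0.79. Its neighbours within 10000 bases were near 0, with 4 to 18 counts for Slc7a7 and 0 to 4 counts for Mmp14.

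Mrpl39 and Mrpl38, also large-subunit proteins found only in mitochondria, followed. Mrpl39 (chr16:84717576-84735742, - strand) was at 66.2, 63.8 and 62.1 CPM in the control replicates and 81.2, 80.3 and 80.8 CPM in the LPS replicates, a log2 fold change of 0.34 ± 0.05 (SE) with an edgeR adjusted p of 7.2e-05. Mrpl38 (chr11:116131817-116138868, - strand), which belongs to the central protuberance, was at 100.6, 95.9 and 98.8 CPM in control and 116, 115 and 115 CPM in LPS, a log2 fold change of 0.23 ± 0.04 (SE) with an edgeR adjusted p of 9.1e-04. In both genes the groups did not overlap, and both passed in 14 of 14 alternatives. The host transcript of the inflammatory microRNA miR-155, Mir155hg, ends 2330 bases from Mrpl39 on the opposite strand and had 3, 6 and 3 counts in control and 18, 37 and 30 counts in LPS.

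The other 4 members that rose changed by less than 1.2-fold. Mrps21, the only small-subunit member that rose, was at 33.3, 31.5 and 36.5 CPM in control and 40.6, 37.9 and 38.8 CPM in LPS. Mrpl30 was at 73.4, 74.2 and 81.9 CPM in control and 95.6, 86.0 and 83.5 CPM in LPS. For both, the lowest LPS library was just above the highest control library. Their log2 fold changes were 0.21 ± 0.07 (SE) for Mrps21 and 0.21 ± 0.06 (SE) for Mrpl30, with edgeR adjusted p of 0.036 and 0.016. Mrpl47, counterpart of a bacterial protein beside the exit tunnel, rose by a log2 fold change of 0.19 ± 0.06 (SE) and Mrpl44, which has a fold like that of a ribonuclease, by 0.17 ± 0.06 (SE), with edgeR adjusted p of 0.016 and 0.032. Mrpl47 shares 616 exon bases with Ndufb5 and 452 with Actl6a, and Mrpl44 shares 126 with Wdfy1, all on the opposite strand. Mrps21 and Mrpl44 passed in 6 of 14 alternatives, and Mrpl30 and Mrpl47 in 9. Over the alternatives the adjusted p ran from 0.0236 to 0.244 for Mrps21, from 0.00256 to 0.172 for Mrpl30, from 0.0133 to 0.205 for Mrpl47 and from 0.0225 to 0.337 for Mrpl44.

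The largest fall was that of Mrps27, a small-subunit pentatricopeptide-repeat protein (chr13:99344786-99415562, + strand). It was at 53.8, 52.1 and 55.1 CPM in control and 49.9, 41.4 and 44.3 CPM in LPS. The groups did not overlap, and LPS replicate 1 was the nearest to control. The log2 fold change was -0.25 ± 0.07 (SE) with an edgeR adjusted p of 0.012, and it failed the test in 1 of 14 alternatives, without LPS replicate 2, at an adjusted p of 0.0724 (0.00109 to 0.0724 over the alternatives). The gene shares 506 exon bases with 6430562O15Rik on the opposite strand.

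The other 5 members that fell did so by a log2 fold change of 0.22 or less in size. Mrpl41, a mitochondria-specific large-subunit protein, was at 42.4, 35.1 and 38.1 CPM in control and 32.9, 32.9 and 33.5 CPM in LPS, a log2 fold change of -0.22 ± 0.08 (SE) with an edgeR adjusted p of 0.039. Mrpl34, counterpart of a small bacterial protein, was at 73.0, 70.0 and 71.3 CPM in control and 61.2, 68.5 and 60.9 CPM in LPS, a log2 fold change of -0.17 ± 0.06 (SE) with an edgeR adjusted p of 0.033. In both genes the groups did not overlap. Mrpl18, counterpart of a bacterial protein of the central protuberance, had a log2 fold change of -0.18 ± 0.06 (SE), and control replicate 2 at 70.5 CPM lay below LPS replicate 3 at 71.4 CPM, so its groups overlapped. It shares 141 exon bases with Tcp1 on the opposite strand, which had 9034 to 10394 counts. Mrpl10, which anchors the ribosomal stalk and shares 240 exon bases with Gm11574 (0 or 1 count) on the opposite strand, had -0.16 ± 0.06 (SE) and Mrps5, a small-subunit protein near the decoding site, -0.15 ± 0.05 (SE). The edgeR adjusted p of Mrpl18, Mrpl10 and Mrps5 were 0.032, 0.044 and 0.044. These 5 members passed in 8 to 10 of 14 alternatives, and the highest adjusted p over them was 0.134 for Mrpl41, 0.132 for Mrpl34, 0.144 for Mrpl18, 0.203 for Mrpl10 and 0.177 for Mrps5.

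**Figure D3:**
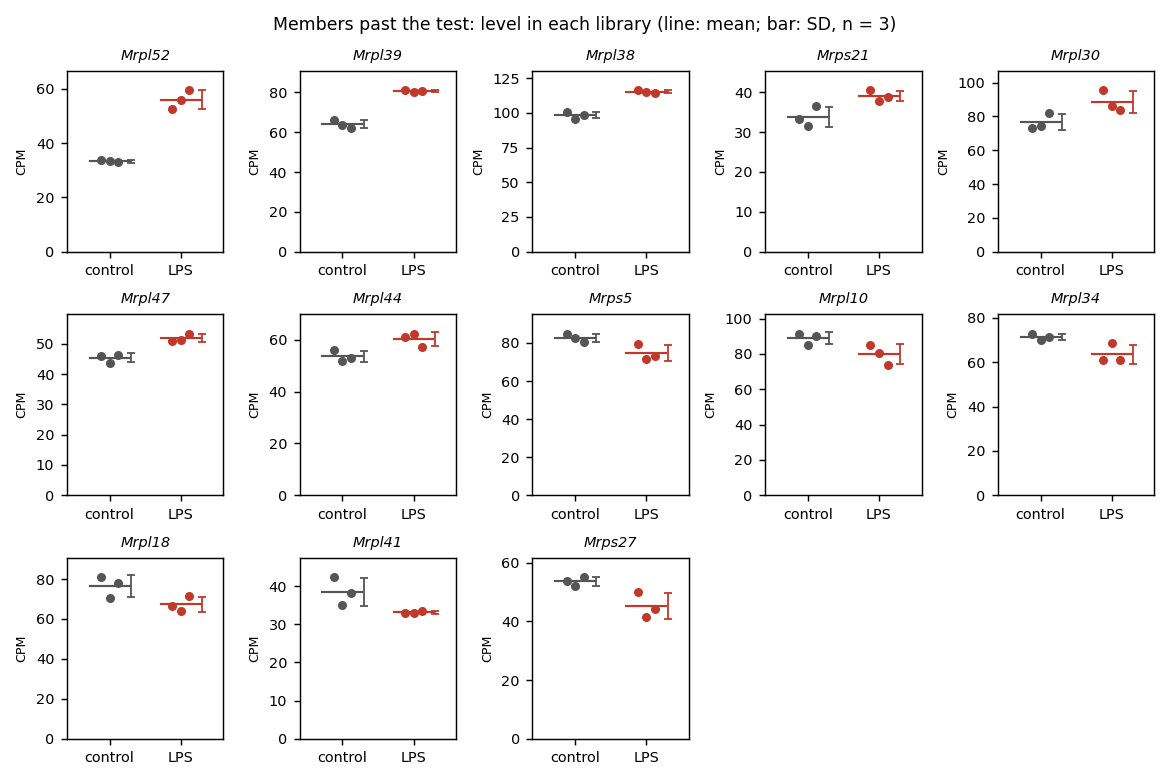
Level in CPM (vertical axes, from 0) of the 13 members that passed the test, in each control (grey) and LPS (red) library, ordered from the largest rise to the largest fall. Points are libraries, lines are means and bars are SD (n = 3). Apart from Mrpl18, where 1 control library lies below 1 LPS library, the groups do not overlap.

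Among the members that passed, the large subunit gave 6 of 7 that rose and 4 of 6 that fell. Of 50 large-subunit members 20% passed, and of 26 small-subunit members 11.5%, both below the 34.3% of all genes. The median log2 fold change was 0.00 for the large and 0.01 for the small subunit. Of 46 members with a bacterial counterpart 3 rose and 4 fell, with a median of 0.01, and of 30 mitochondria-specific members 4 rose and 2 fell, with a median of -0.01. Of the 31 tested members that share exon bases with another gene 5 passed, and of the 46 that share none 8 passed.

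Members whose protein sits elsewhere than the name says did not pass the test. Mrps18a, which belongs to the large subunit, had a log2 fold change of 0.01 ± 0.06 (SE), and Mrps30, also a large-subunit protein, 0.05 ± 0.07 (SE). Mrps36, now known as a part of the oxoglutarate dehydrogenase complex, had -0.05 ± 0.09 (SE). The small-subunit paralogs Mrps18b and Mrps18c each had 0.13, with edgeR adjusted p of 0.196 and 0.259. Without LPS replicate 3, Mrps18b was called higher, at 0.20 with an edgeR adjusted p of 0.0432 (0.0432 to 0.781 over the alternatives). Mrpl33 had a fitted log2 fold change of 0.21, as large as that of Mrps21, but its SE was 0.09 and its adjusted p 0.084 with edgeR. Without the filter on low counts it was called higher, at an edgeR adjusted p of 0.0487 (0.0487 to 0.350 over the alternatives), and without 1 library its log2 fold change ran from 0.10 to 0.26.

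Levels between members were compared per kilobase of the gene length in the table. Mrpl34 was highest at 111 CPM per kilobase, followed by Mrpl43, a mitochondria-specific protein, at 91.8 and Mrpl12, a protein of the ribosomal stalk, at 81.3. Mrps10 was lowest of the tested members at 2.96, followed by Mrpl48 at 4.75 and Mrpl33 at 5.0, and the median was 22.2 CPM per kilobase. The length in the table joins all transcripts of a gene. With the length of the principal transcript in GENCODE M21, Mrpl20 was highest at 159.6 and Mrps25 lowest at 7.26, and Mrps10 and Mrpl33 came to 23.5 and 76.6 CPM per kilobase, so their low place depended on the length used. Neither Mrpl43 nor Mrpl12 passed the test, at log2 fold changes of -0.01 and -0.08, nor did Mrps10 or Mrpl48, at 0.01 and 0.03.

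Mrpl53 had 0 counts in all 6 libraries and was not tested. Of its 790 exon bases, 695 (88%) are shared with Gm42688 on the same strand, which had 6, 1, 5, 6, 2 and 5 counts. A count of 0 in a library allows up to 0.161 to 0.190 CPM (3 counts, counting error only), and how reads on shared bases were assigned is not given in the sources used here, so the zeros do not show that Mrpl53 is silent. Of the annotated pseudogenes of members, AC154457.3, a copy of Mrps10, had 283 to 412 counts per library beside 370 to 439 for Mrps10, so how reads were divided between them is uncertain, and Mrpl48-ps had 77 to 121 counts.

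Of the members, 37 lie head to head with another gene, on opposite strands with starts within 1000 bases. Partners of any gene type were taken, and the share of all genes that lie so was not counted. In 31 of the 37 both genes were tested. These form 30 pairs, since Mrpl46 and Mrps11 are partners of each other. Of the 29 partners that are not members 5 rose and 7 fell (41.4%), beside 34.3% of all genes and 40.6% of those in the members' range of counts. Member and partner both rose in 2 pairs and both fell in 1, and none moved in opposite directions with both past the test. Mrpl47, Mrpl18, Mrps27 and Mrps5 passed while their tested partners Ndufb5, Tcp1, Ptcd2 and Zfp661 did not. Whether members and partners change together was not tested. The starts of Mrpl30 and Mitd1, whose protein acts in cell division, lie 66 bases apart. Mitd1 had 151, 205 and 187 counts in control and 460, 612 and 554 in LPS, a log2 fold change of 1.72 ± 0.12 (SE) with an edgeR adjusted p of 2.2e-08, beside 0.21 for Mrpl30. Wdfy1, which shares exon bases with Mrpl44, had a log2 fold change of 0.60 ± 0.05 (SE) with an edgeR adjusted p of 3.4e-07, beside 0.17 for Mrpl44. Pnpla7 had -0.23 ± 0.06 (SE) with an edgeR adjusted p of 0.0077, beside -0.22 for Mrpl41. Ncapd2, a condensin subunit, fell by 0.53 on the log2 scale, while its partner Mrpl51 had -0.06 and did not pass, except with total-count scaling. The largest fitted change of a partner was that of the antisense transcript 4930473A02Rik, whose start lies 7 bases from that of Mrps26. It fell from 11, 20 and 14 counts to 3, 3 and 1, and the size of its fitted change, -2.49, depends on the prior count at so few reads. Mrps26 itself had -0.15 and did not pass, with an edgeR adjusted p of 0.067, though it was called lower in 6 of 14 alternatives (adjusted p 0.00419 to 0.251). Whether reads were counted by strand is not given in the sources used here, so for overlapping pairs the reads cannot be told apart.

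**Figure D4:**
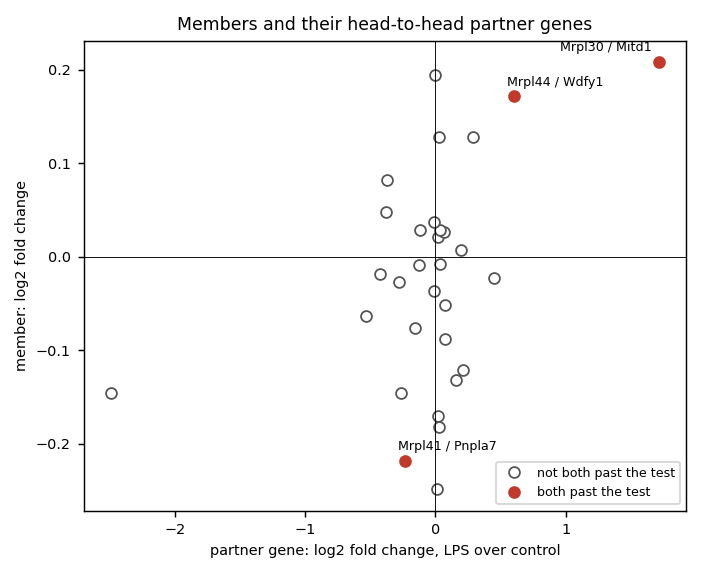
Log2 fold change of each member (vertical axis) against that of its head-to-head partner (horizontal axis) for the 31 members with a tested partner (Mrpl46 and Mrps11, partners of each other, give 2 points), filled where both passed the test. The members stay between -0.25 and 0.21, and the partners between -2.49 (4930473A02Rik, at 1 to 20 counts) and 1.72 (Mitd1).

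Other genes of mitochondrial translation were counted by list, to be read beside the 18.7% of all genes that rose and the 15.7% that fell. The 5 mitoribosomal proteins with other names, Dap3, Chchd1, Aurkaip1, Ptcd3 and Gadd45gip1, had log2 fold changes of -0.09 to 0.05. None passed edgeR's test, 0 had an unadjusted p under 0.05, and DESeq2 called 0. Of 29 genes listed under assembly 1 rose and 3 fell, with a median of -0.04. The 1 that rose was Lars2, by a log2 fold change of 0.25, and as the mitochondrial leucyl-tRNA synthetase it is not an assembly factor in the strict sense. Rbfa, a factor for small-subunit maturation, and Trmt2b, an RNA methyltransferase, fell by 0.42 and 0.39. Of 21 translation factors 2 fell and none rose by edgeR's adjusted p (1 was higher at an unadjusted p under 0.05), namely Qrsl1, which acts in glutamine tRNA charging, by 0.36 and the elongation factor Guf1 by 0.35.

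Of 20 genes for transcription and processing of the mitochondrial genome, 2 rose and 2 fell. The RNA exonuclease Pnpt1 rose by a log2 fold change of 0.46 and the tRNA-processing factor Trmt10c by 0.22, while the nuclease Mgme1 and the RNA polymerase Polrmt fell by 0.32 and 0.24. Among 9 regulators of mitochondrial biogenesis 3 rose and none fell by edgeR's adjusted p (1 was lower at an unadjusted p under 0.05), so 33.3% passed, close to the 34.3% of all genes. Myc, a transcription factor that drives ribosome and mitochondrial biogenesis, had 51, 76 and 55 counts in control and 440, 445 and 398 in LPS, a log2 fold change of 2.95, and the nuclear receptor Esrra rose by 0.42.

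The mitochondrial ribosomal RNAs gave higher counts after LPS. The small-subunit RNA mt-Rnr1 had 3826, 4299 and 4045 counts in control and 7580, 8669 and 9071 in LPS, a log2 fold change of 1.19 ± 0.06 (SE) with an edgeR adjusted p of 3.2e-10. The large-subunit RNA mt-Rnr2 had 2418, 2917 and 2988 counts in control and 4216, 4472 and 4796 in LPS, a log2 fold change of 0.83 ± 0.06 (SE) with an edgeR adjusted p of 3.4e-08. The groups of both did not overlap. The labels do not state how ribosomal RNA was handled in library preparation, so these counts compare the libraries as made. Of the 12 mitochondrially encoded protein genes tested, mt-Nd1 and mt-Nd2, subunits of respiratory complex I, fell by 0.32 and 0.25 on the log2 scale, the median was -0.08, and none rose (0 at an unadjusted p under 0.05 too).

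Cytosolic ribosomal proteins passed the test in 57.7% of cases, beside 34.3% of all genes and 16.9% of the mitochondrial ones, at a median of 8209 counts per library against 860 for the latter. They were taken by symbol, as protein-coding genes named Rpl or Rps followed by a number, without kinases and pseudogenes. Rpsa and the Rplp genes fall outside this rule, so the set is not the whole cytosolic ribosome. Of 78 tested, 45 rose and none fell with edgeR (0 were lower at an unadjusted p under 0.05, and 0 with DESeq2), with a median log2 fold change of 0.13. Their summed level after TMM scaling was 38561 ± 526 CPM in control and 42339 ± 438 CPM in LPS (SD, n = 3), and the groups did not overlap. The TMM factors were 1.034 to 1.036 in control and 0.9646 to 0.9699 in LPS, so the difference is smaller without them. With total-count scaling 17 rose and 1 fell, where 12.4% of all genes rose and 27.2% fell. No test was made of the difference between the groups of genes.

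**Figure D5:**
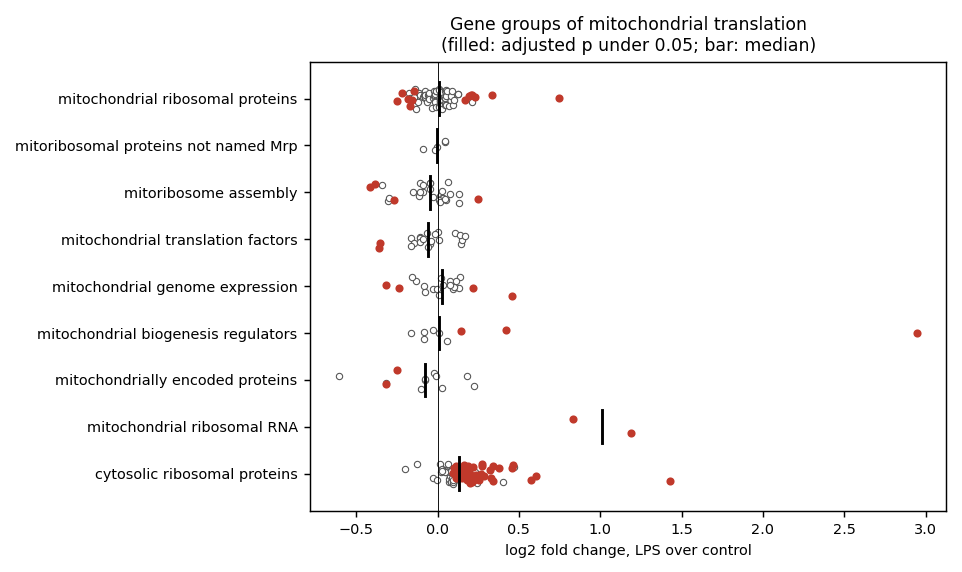
Log2 fold change of LPS over control (horizontal axis) for each tested gene of the mitochondrial ribosomal proteins and of other gene groups (rows), filled where the adjusted p was under 0.05, with a bar at the median. The mitochondrial ribosomal proteins centre on 0.01 and the cytosolic ones on 0.13, and both mitochondrial ribosomal RNAs lie to the right, at 0.83 and 1.19.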

How the data were processed

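RNA-seq of 3 control and 3 LPS libraries of N9 microglia was analysed, grouped by the labels. The authors deposited read counts per gene, without normalization, made with featureCounts 1.5.0-p3 on mm10 according to the submitters' processing notes. The aligner, strand setting and annotation release are not given in the sources used here. A further 18 per-sample columns, and the authors' own fold changes and p-values, were not used.

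Members and gene lists were chosen with earlier results of these data known. edgeR 4.0.16 under R 4.3.3 (TMM, filterByExpr by group, prior count 0.125, quasi-likelihood test, no replicate term) was fitted to all genes, with Benjamini-Hochberg adjustment over 12296 tested genes. The SE was derived from the log2 fold change and its F statistic. Named genes were up to 10 called members in each direction, the 3 highest and 3 lowest per length, untested members, misnamed members and their paralogs, and up to 2 called genes per list and direction. Mir155hg, the head-to-head partners, further cell type markers, the pseudogenes, Mrpl33 in the comparison with Mrps21, Mrpl20 and Mrps25 were named after their values were seen, and part of the marker results is not reported here. Exons came from GENCODE M21, where 73 of 78 members had the same position and exon length as in the table. Promoters came from RefSeq GRCm38.p6.

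Alternatives were DESeq2 1.42.0, RLE, upper-quartile and total-count scaling, no filter, a mean of 10 counts, protein-coding genes alone, a replicate block and each library left out. On simulated counts with 200 changed genes, edgeR with 6 libraries recovered 200 of 200 with 10 false calls among 12324 tested genes. Recovery of differences as small as those of the members was not tested. Within groups, library pairs differed by more than sampling noise (chi-square per gene 3.61 to 7.82). Intervals of fold changes come from the edgeR fit and include the spread between libraries, while the floors of 3 counts cover counting error only. Python 3.11.15 and matplotlib 3.10.9 were used for figures.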

Additional observations from a re-analysis of the deposited data

How the results depend on the processing

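The median log2 fold change of the members was -0.0398 with upper-quartile and -0.0898 with total-count scaling, where the median of all genes was -0.04 and -0.09 as well, and -0.0324 to 0.0145 without 1 library. The log2 ratio of the summed levels was -0.0456 and -0.0953 under these scalings and -0.0276 to 0.0171 without 1 library. Of all genes, DESeq2 called 14.2% higher and 11.6% lower, upper-quartile scaling 15% and 20.3%, total-count scaling 12.4% and 27.2%, and fits without 1 library 14.7% to 17.2% and 12.4% to 15.4%. Members called higher numbered 4 with DESeq2 and 3 with either scaling, and 3 to 6 without 1 library. Members called lower numbered 2 with DESeq2, 11 with upper-quartile and 20 with total-count scaling, and 1 to 6 without 1 library. Over the nuclear genes with other names (the 5 further mitoribosomal proteins, assembly, translation factors, genome expression and biogenesis regulators), 6 genes were higher and 7 lower. With total-count scaling 3 were higher and 23 lower, and with upper-quartile scaling 5 were higher and 12 lower. Cytosolic ribosomal proteins called higher numbered 27 with upper-quartile and 17 with total-count scaling, and 32 to 48 without 1 library, and 1 was lower with total-count scaling, without the filter and without LPS replicate 2 (0 to 1 without 1 library).

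With the replicate block 7 members were higher and 7 lower, among them all 7 and all 6 called without it, and the further one was Mrps26. The block called 20% of all genes higher and 16.4% lower. Deviations of same-numbered libraries correlated at 0.131, 0.0484 and 0.0049, and those of differently numbered ones at -0.121 to 0.0772. The labels give same-numbered libraries no link other than the number, and the correlations do not exclude one. Of 726 values of named genes under alternatives, 655 gave the same call, 68 lost it and 3 gained it. The sign changed in 29 of them, in 11 genes that were never called. The causes of these shifts were not tested.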

Other observations

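The tested members varied little between libraries of a group. The median coefficient of variation of the CPM values was 4.72% in control and 3.92% in LPS, and 67 of the 77 members were below 10% in both groups. Mrpl55, a large-subunit protein, varied most in LPS, at 21.2, 18.4 and 25.6 CPM in LPS replicates 1, 2 and 3 (16.8%), with 20.8, 22.1 and 21.7 CPM in control. Mrpl12 and Mrpl14 varied most in control, each at 14.0% to 14.3%, and control replicate 1 was the highest library of both, at 147.5 CPM for Mrpl12 and 37.1 CPM for Mrpl14.

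Among members that missed the test, 6 had groups that did not overlap, namely Mrps18c, Mrpl23 and Mrps2 with higher and Mrpl19, Mrpl49 and Mrps31 with lower LPS libraries. Over all tested genes, called or not, the groups did not overlap in 45.3%, and over all tested members in 23.4%.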
